A study of Mus musculus with 4 samples.

Results

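The row described here is a single locus of the count table that holds both cardiac myosin heavy chain genes of the mouse, Myh6 (the alpha heavy chain) and Myh7 (the beta heavy chain). It is XLOC_009781, at chr14:55558018-55626715 on the minus strand of mm9, and it was chosen as 1 of 35299 loci in the table. Its members were all 21 transcript models filed under that locus, of 77650 models in all. The 5 other loci that overlap the interval on either strand were added, with 8 models. One of them is Mhrt, a long noncoding RNA on the opposite strand.

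Myosin heavy chain is the motor protein of the thick filament. Its head hydrolyses ATP and pulls on actin, and its long rod, a coiled coil built of short repeats, packs into the filament. In the mouse the alpha chain, with the faster ATPase, is the main form of the adult ventricle, while the slower beta chain prevails before birth and returns when the heart is stressed. The genes lie head to tail, Myh7 upstream of Myh6, and each carries a microRNA in an intron. Mhrt is known in the mouse as a transcript antisense to Myh7 that binds the chromatin remodeller Brg1.

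The series held 1 group, Sham, with 4 replicates and no group to set against it. The labels give C57BL/6J mice, aged 12 weeks, sampled 2 weeks after a sham operation at the site where an infarct border zone would lie. The free text for replicate 4 speaks of an infarct border zone without calling it sham, while its other labels do, and it was kept. The libraries are headed 3RL, 7LR, 8R and 12RL, names that tie to no replicate number, so which of them is replicate 4 was not known. The paired reads of 100 bases came from poly(A)-selected RNA of tissue pieces, so that fewer cells of a type and less RNA per cell cannot be told apart. With 1 group, no test between conditions was made, and values are given by library.

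The table held between 108345923 reads in 12RL and 160670654 reads in 8R, recovered from the normalised values. The mitochondrial chromosome took 29.2% to 32.3% of the reads. Heart muscle markers (9 of 10 could be matched to a locus, none at 0) summed to between 9542028 and 10719841 normalised counts. Atrial markers (3 of 4 matched, none at 0) summed to between 15765 and 19052, nearly all of it from the natriuretic peptide gene Nppa (15578 to 18866). Fibroblast and matrix markers (5 of 5 matched, none at 0) summed to between 96239 and 149476. The 2 haemoglobin markers were not matched to a locus. No gene symbol stands in the files: loci were named where a UCSC model had the same intron and inner exon lengths, in order, as a GENCODE M21 transcript on the same chromosome and strand.

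The microRNAs of the genes show how alike the pair is, and are printed because they are the smallest products of the locus. Mature sequences are from RefSeq (GRCm38.p6), with the seed, bases 2 to 8, in capitals.
mmu-miR-208a-3p: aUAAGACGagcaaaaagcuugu
mmu-miR-208b-3p: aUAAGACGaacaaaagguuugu
mmu-miR-208a-5p: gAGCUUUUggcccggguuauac
mmu-miR-208b-5p: aAGCUUUUugcucgcguuaugu
The 3p forms share the seed UAAGACG and differ at 3 of 22 positions. The 5p forms share the seed AGCUUUU and differ at 6 of 22 positions. Mir208a lies in intron 29 of Myh6, which is 542 bases long, and Mir208b in intron 31 of Myh7, which is 461 bases long. None of the 21 models had an exon across the whole of either intron (0 models each). No level is given for the microRNAs, since the table has no row of their own.

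The coding sequences are alike over most of their length. Those of the GENCODE transcripts matching the longest UCSC models run to 5817 bases in Myh6 and 5808 bases in Myh7. Of 5805 aligned bases, 5322 were identical (91.7%), and 483 differed. The longest identical run was 245 bases, longer than a read of 100 bases. Of 5472 windows of 100 aligned coding bases, 687 (12.6%) were identical in both genes. Among exons with 50 or more aligned coding bases, identity was lowest in exon 25 of Myh6, at 67.0%, and reached 100% in exons 18 and 38. A read that falls wholly in an identical window carries no base that tells the genes apart.

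The model file was pooled, with no statement of which libraries were assembled, and described the locus as more than a pair of neighbouring genes. Of its 21 models, 5 were UCSC models and 16 were assembled from the reads. The UCSC models comprised 3 of Myh6 and 2 of Myh7. The longest of Myh6, uc007txs.1, had 39 exons and 6038 bases, and the longest of Myh7, uc007txv.1, had 41 exons and 6054 bases. Shorter UCSC fragments were uc007txt.1 of 168 bases at the end of Myh6, and uc007txw.1 of 3700 bases within Myh7, which matched a GENCODE transcript with a retained intron. In these UCSC models the genes did not touch: 4116 bases separated the end of Myh7 from the start of Myh6.

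Of the 16 assembled models, 4 lay in Myh6 only, 0 in Myh7 only, and 12 ran from Myh7 into Myh6. The 4 assembled Myh6 models had 39 exons and 8719 to 9038 bases, and used 3 start sites. The first start was that of the UCSC model, the next lay 207 bases upstream, and the farthest lay 1569 bases upstream with a first exon of 273 bases. All 16 assembled models ended at base 55558018, 2745 bases beyond the UCSC end of Myh6. The 12 joined models were 21991 to 23375 bases long, with a median of 22149.5 bases, and had 39 to 42 exons. Each began at base 55626715, 13329 bases upstream of the UCSC start of Myh7, with a first exon of 13368 bases in 11 models and 13320 bases in 1 model.

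**Figure D1:**
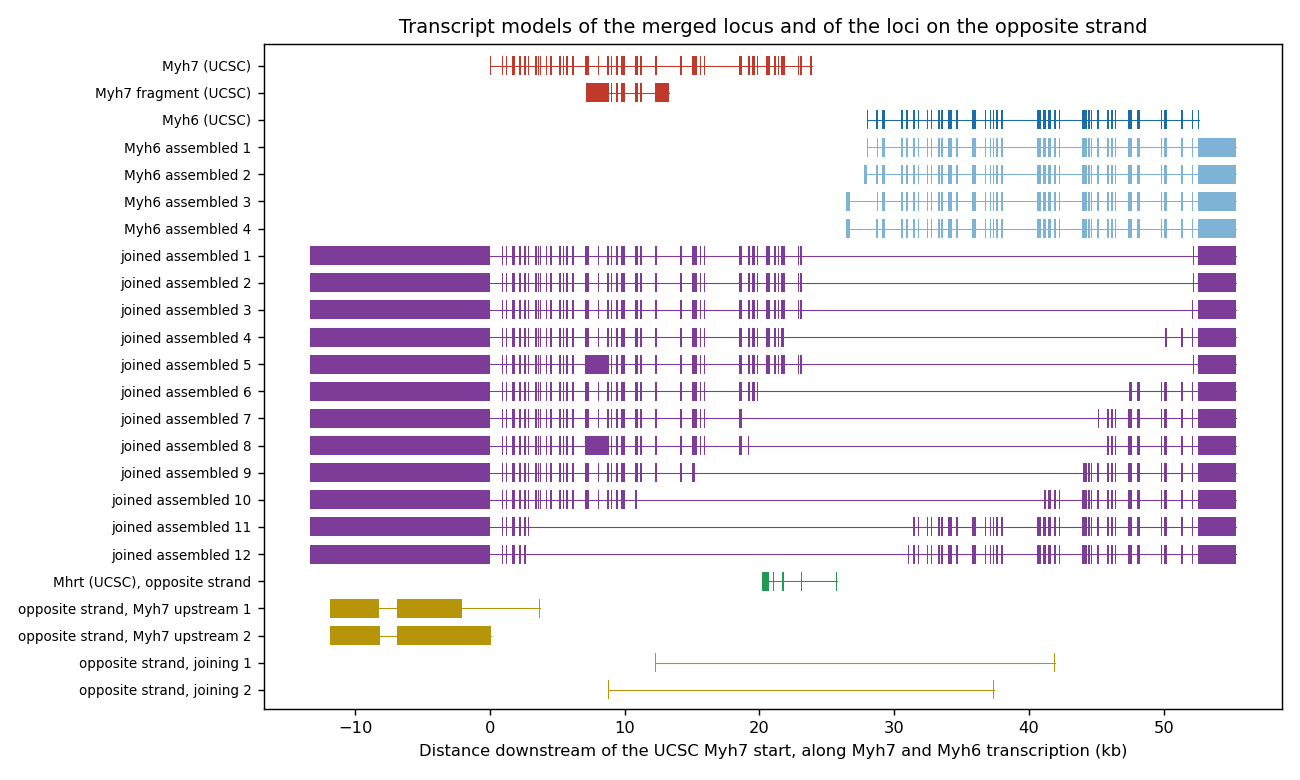
Models of the merged locus and of the loci on the opposite strand, leaving out uc007txr.1, uc007txt.1 and the Cmtm5 models, drawn by distance from the UCSC start of Myh7 (x axis, kilobases; boxes, exons; lines, introns). The 12 joined models start 13329 bases upstream of Myh7 and end 2745 bases beyond the UCSC end of Myh6.

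The exon pattern of both genes was nonetheless represented in the assembly. All 39 different introns of the longer Myh6 UCSC models, uc007txr.1 and uc007txs.1, were present in at least 1 assembled model. Of the 40 introns of the Myh7 model uc007txv.1, 39 were present, and each of those stood in a joined model. The absent one was the last, at chr14:55589648-55590213, which leads to the last exon of Myh7. Thus no assembled model had the 3′ end of Myh7. Assembled models list structures and carry no read counts of their own, so the share of RNA behind any of them is not known.

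The 12 joined models used 10 different splice junctions between the genes. Read along Myh7, the switch came as early as exon 6 and as late as exon 40. Myh6 introns were counted from its longer UCSC models, uc007txr.1 and uc007txs.1. On that count the joined models ranged from 39 Myh7 introns with 0 Myh6 introns to 5 Myh7 introns with 34 Myh6 introns. The model with 0 also held the intron of uc007txt.1, the UCSC fragment at the end of Myh6. Each junction skipped from a coding exon of Myh7 to the matching coding exon of Myh6 or to the one before it.

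**Figure D2:**
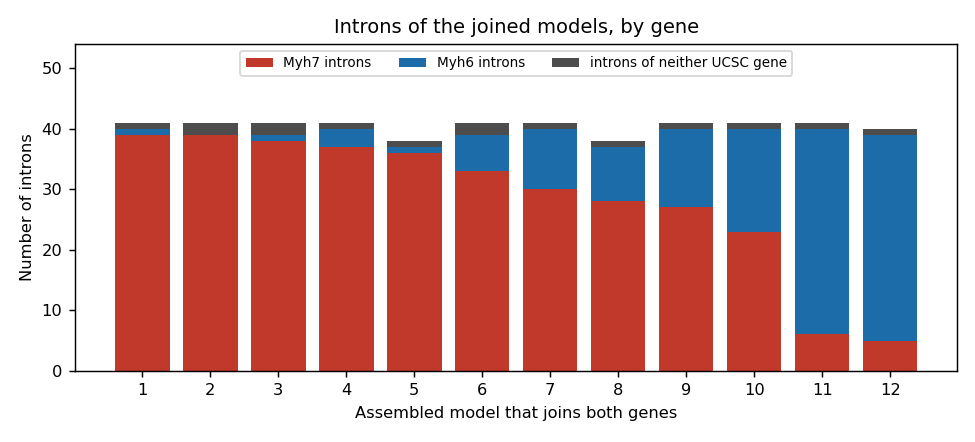
Introns of Myh7, of the longer Myh6 UCSC models and of neither in each of the 12 joined models (x axis, model; y axis, number of introns, stacked from 0). The intron of the Myh6 fragment uc007txt.1 is counted under neither. On this count the models run from 39 Myh7 introns and 0 Myh6 introns to 5 Myh7 introns and 34 Myh6 introns.

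At 3 of the 10 junctions, used by 5 models, the break fell at the same point of the coding sequence in both genes. There the genes shared an identical stretch of 26, 125 or 173 bases across the break. The junction used most, by 3 models, spanned chr14:55561202-55590225, from exon 40 of Myh7 to exon 38 of Myh6, inside the stretch of 173 bases. The implied intron began with AT and ended with AC. The 60 coding bases around this junction are shown because they hold the end of the identical stretch; they are from GENCODE M21 transcripts (GRCm38), 5′ to 3′, and capitals mark bases that differ between the genes.
Myh7 at the exon 40 junction: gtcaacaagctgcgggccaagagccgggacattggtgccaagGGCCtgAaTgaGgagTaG
Myh6 at the exon 38 junction: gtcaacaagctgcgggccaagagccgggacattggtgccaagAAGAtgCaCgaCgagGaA
A second such junction, chr14:55565997-55592840, joined exon 35 of Myh7 to exon 33 of Myh6 in 1 model, inside a stretch of 26 identical bases, and its implied intron began with GC and ended with AG. Capitals again mark bases that differ.
Myh7 at the exon 35 junction: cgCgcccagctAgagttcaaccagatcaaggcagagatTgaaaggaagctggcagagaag
Myh6 at the exon 33 junction: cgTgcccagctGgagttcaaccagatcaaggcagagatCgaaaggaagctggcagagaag
The remaining one, chr14:55582359-55610694, joined exon 6 of Myh7 to exon 5 of Myh6 inside 125 identical bases, and its implied intron began with CT and ended with GC.

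At the other 7 junctions, each used by 1 model, the joined sequence repeated 63 to 108 coding bases: the Myh6 side began upstream of the point that the Myh7 side had reached. The repeat was a whole number of codons in 6 of the 7. It was 84 bases, or 28 codons, at 3 junctions, and 72 bases (24 codons), 108 bases (36 codons) and 63 bases (21 codons) at 1 junction each. The exception repeated 68 bases, in the head region of the genes. A length of 28 residues is that of the charge repeat of the myosin rod. The genes were identical across the break for 1 to 11 bases at these 7 junctions, against 26 to 173 bases at the 3 junctions without a repeat. All 7 implied introns ended with AG, and they began with GT at 2 junctions and with GC at the other 5. A pair of the junctions with 84 repeated bases is shown as examples, with the first 2 bases (Myh7 side) or the last 2 bases (Myh6 side) of the implied intron in capitals.
Myh7 exon 38 at chr14:55563277-55591602: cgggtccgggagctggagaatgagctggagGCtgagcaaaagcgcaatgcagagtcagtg
Myh6 exon 36 at chr14:55563277-55591602: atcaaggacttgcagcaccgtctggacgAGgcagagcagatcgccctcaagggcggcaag
Myh7 exon 28 at chr14:55569371-55598195: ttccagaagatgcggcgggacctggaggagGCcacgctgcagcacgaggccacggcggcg
Myh6 exon 26 at chr14:55569371-55598195: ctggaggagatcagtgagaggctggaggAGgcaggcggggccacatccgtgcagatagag
The bases in capitals lie inside coding exons. The 8 Myh6 exons that held a junction were 91.9% (exon 33) to 100% (exon 38) identical to Myh7. Those without a junction ran from 55.6% (exon 39) to 100% (exons 6 and 18). Whether these joins were present in the RNA or arose in alignment or assembly was not tested, and the reads that spanned them were not analysed here.

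**Figure D3:**
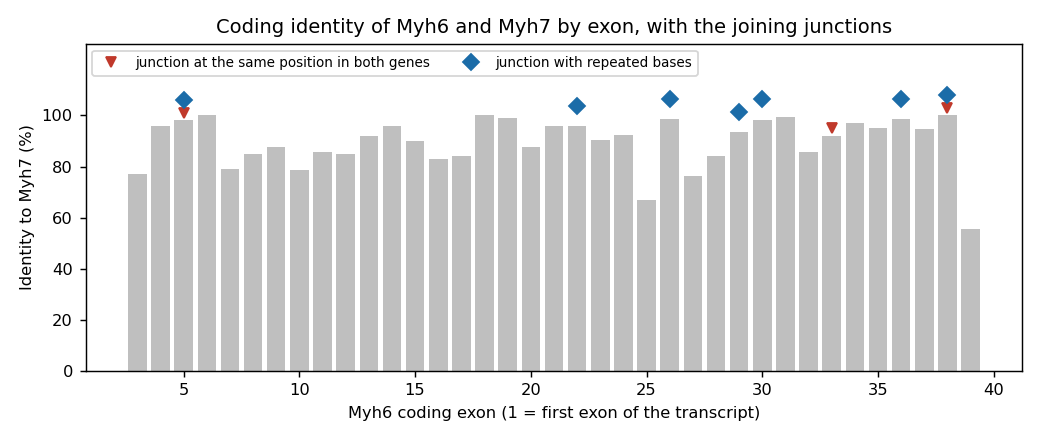
Identity of Myh6 and Myh7 coding bases for each Myh6 exon (x axis, exon number; y axis, percent of aligned coding bases, from 0), with triangles over exons that hold a junction at the same position in both genes and diamonds over exons that hold a junction with repeated bases. Exon 25 lies at 67.0% and exon 39, with 18 aligned coding bases, at 55.6%, and the exons under the marks lie between 91.9% and 100%.

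Models that join separate UCSC models were not limited to the myosin genes. The merged locus held 12 of them. Over the whole file, 1257 of 28303 assembled models did so, in 526 loci with a median of 2 such models per locus. One locus had more, with 13.

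Myosin heavy chain was the most abundant nuclear row of these hearts. The merged locus had 4389572 normalised read counts in 3RL, 4854819 in 8R, 5176832 in 7LR and 5309783 in 12RL, with a mean of 4932752 ± 409408 (SD, n = 4). These values stand for 3677345 reads in 3RL, 4270428 in 8R, 4545829 in 7LR and 3367700 in 12RL. The lowest library was 3RL, and 12RL was 1.21 times as high. The value is the sum over both genes and all 21 models, and no part of it can be assigned to Myh6 or to Myh7 from the table.

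**Figure D4:**
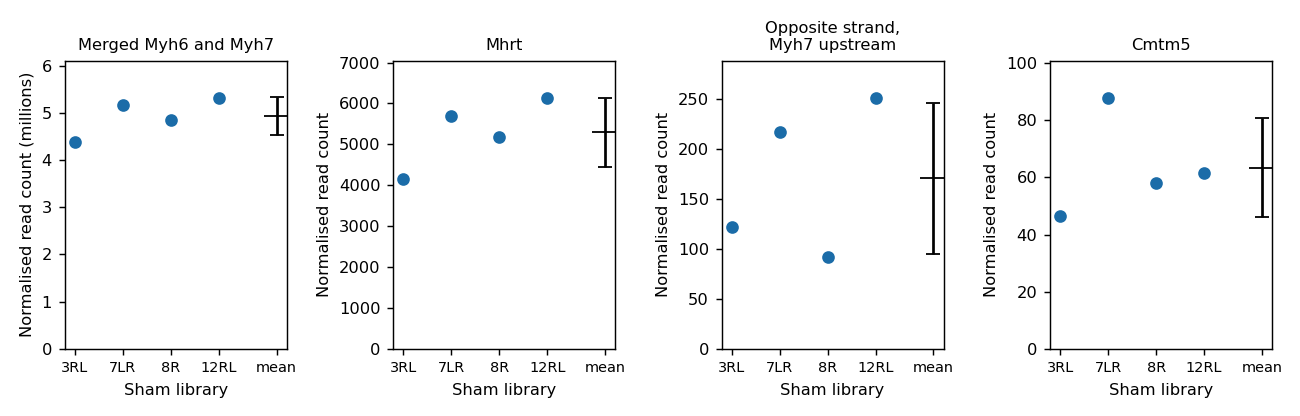
Normalised read counts (y axes from 0, each with its own scale) of the merged locus, Mhrt, XLOC_009268 (opposite strand, Myh7 upstream) and Cmtm5 by library (x axis), each point 1 library, with the mean and SD beside them. The merged locus lies between 4389572 and 5309783, Mhrt between 4148 and 6122, XLOC_009268 between 92.1 and 251, and Cmtm5 between 46.6 and 87.7.

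The locus took 2.62% of all reads in 3RL, 2.66% in 8R, 3.19% in 7LR and 3.11% in 12RL. Counting error was small beside these differences, as the 95% Wilson interval was 2.614% to 2.619% in 3RL and 3.187% to 3.192% in 7LR. Of the nuclear reads it took 3.80% in 3RL, 3.92% in 8R, 4.50% in 7LR and 4.45% in 12RL, with a mean of 4.17% ± 0.358 (SD, n = 4). It ranked 1 of 35291 nuclear loci. The next rows were Atp2a2, the calcium pump of the sarcoplasmic reticulum, with a mean of 2594632 normalised read counts, Actc1 (cardiac actin) with 1388903 and Mb (myoglobin) with 1354951.

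Per kilobase the order changed. Divided by its longest UCSC model of 6054 bases, the merged locus had 814792 ± 67626 normalised read counts per kilobase (SD, n = 4) and ranked 4. Above it stood Myl2, the ventricular regulatory light chain, with 1548551 per kilobase, Mb with 1283098 and Actc1 with 999211. Myl3, the ventricular essential light chain, came next with 775411. The length chosen matters here: divided by the longest spliced model of each locus or by all its exon bases, the merged locus ranked 9 in either case.

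The spread between hearts lay in the middle of that of abundant rows. The CV of the merged locus was 8.30%, and 96 of the 200 nuclear loci nearest in mean (48.0%) had a lower one. As the merged locus is the highest, these loci all lie below it, down to a mean of 73003 normalised read counts. Among the 9114 loci averaging at least 1000 normalised read counts, the middle CV was 8.61%. Much of the spread came with 1 library: without 3RL the CV was 4.57%.

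On the scale of log2(value + 1), the merged locus deviated from its own mean by -0.16 in 3RL, -0.02 in 8R, 0.07 in 7LR and 0.11 in 12RL. Loci with a longest UCSC model of 5000 to 7000 bases, close in length to the myosin models, had median deviations of -0.04 in 3RL, -0.06 in 8R, 0.05 in 7LR and 0.05 in 12RL, over 1012 loci. In 3RL only 11.2% of these loci lay below the merged locus, against 67.5% in 8R, 59.5% in 7LR and 70.9% in 12RL. Myosin was thus low in 3RL also beside loci of like length, while in the other libraries it lay in the middle range. Fibroblast and matrix markers ran in another order, with sums of 149476 in 3RL, 138321 in 8R, 118236 in 7LR and 96239 in 12RL. Of these 5 markers, 2 were highest in 3RL and 4 were lowest in 12RL. Col3a1, a fibrillar collagen gene, had 44691 normalised read counts in 3RL and 14291 in 12RL. Dcn (decorin), the most abundant of the 5, did not follow it, with 51752 in 3RL and 53691 in 12RL. The part of these markers in the level of the merged locus was not tested.

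**Figure D5:**
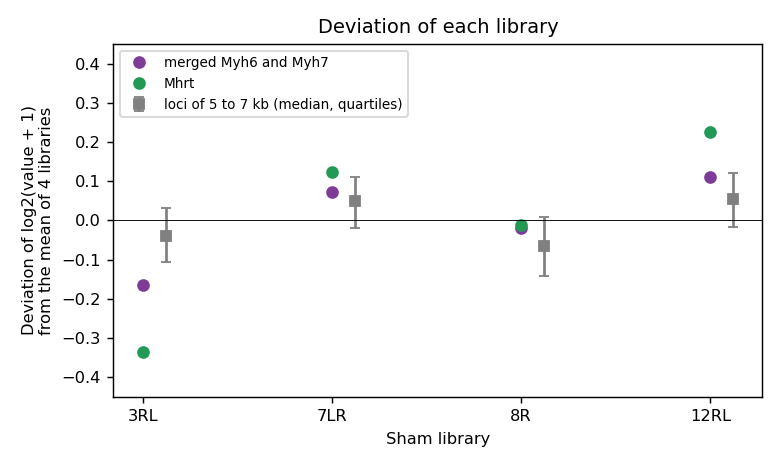
Deviation of each library from the mean over the 4 libraries, on the scale of log2(value + 1), for the merged locus, for Mhrt and for the 1012 loci with a longest UCSC model of 5000 to 7000 bases (median and quartiles). In 3RL the merged locus lies at -0.16 and Mhrt at -0.34, while the loci of like length have a median of -0.04.

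The loci whose deviations over the 4 libraries were most like those of the merged locus included Zfp62, N4bp2l2, Cxadr and Atxn7. Likeness was the root mean square difference of the log2 deviations, which ran from 0.0094 for Zfp62 to 0.0102 for Atxn7 among these and had a median of 0.16 over the 9113 other nuclear loci averaging at least 1000. The measure rests on 4 values per locus. Their mean levels, from 4251 normalised read counts for Zfp62 to 6118 for N4bp2l2, were far below that of the merged locus. Mhrt had a difference of 0.11 and ranked 2026.

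Other genes of the contractile apparatus give the scale of the myosin value. Of 16 sarcomere genes listed, 15 could be matched to a locus (Mybpc3 could not), which left 13 loci besides the merged one. Per kilobase of the longest UCSC model, the thin filament reached 123% of the merged locus for Actc1, 70.7% for Tpm1 (tropomyosin), 49.2% for the locus of Tnnt2 (troponin T) and 41.0% for Tnnc1 (troponin C). The light chains stood at 190% for Myl2 and 95.2% for Myl3. These percentages depend on the length used. The longest model of any origin had 6109 bases for Myl2, against 633 in its longest UCSC model. For Myl3 it had 8240 against 898, and for the merged locus 23375 against 6054. Ttn, the giant spring protein titin, stood at 1.09%, and the M-band proteins Myom1 and Myom2 at 6.20% and 5.85%. The locus of Tnnt2 also matched Lad1, and that of Tnni3 (troponin I, 29.6%) also matched Dnaaf3 and Tnnt1, so those are sums as well.

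Myh7b, another striated-muscle myosin heavy chain gene, has a locus of its own on chromosome 2. It had 13968 normalised read counts in 3RL, 19848 in 8R, 20850 in 7LR and 19072 in 12RL. Per kilobase it stood at 0.367% of the merged locus. Like the merged locus, it was lowest in 3RL. Of the 13 sarcomere loci, 3 were lowest in 3RL, and 7 were highest in 8R, 4 in 12RL and 2 in 7LR. Those 7 had longest UCSC models of 633 to 2992 bases, but Myl4 (883 bases) and Myl7 (590 bases) were highest in 12RL. Among nuclear loci averaging at least 1000, the median log2 deviation in 8R was 0.22 up to 1000 bases and -0.18 above 8000 bases. In 12RL these medians were -0.09 and 0.16. The part of length in the order or spread of the sarcomere loci was not tested. CVs of the 13 loci ran from 6.14% (Myom1) to 151% (Myl7), with a median of 13.7%. Of them, 2, Myom1 and Tpm1, had a CV below that of the merged locus.

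Myl7 and Myl4, the atrial light chains, were near the bottom of the list. Myl7 had 118 normalised read counts in 12RL, against 11.9 in 3RL, 12.5 in 7LR and 2.27 in 8R. Myl4 had 460 in 12RL, against 173 in 3RL, 174 in 7LR and 184 in 8R. Library 12RL, which was also highest for the merged locus, stood apart upward for both. Nppa, the atrial natriuretic peptide gene, did not follow them, with 18378 in 3RL, 18866 in 8R, 15578 in 7LR and 18029 in 12RL.

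Of the 5 loci that overlap the merged one, all on the opposite strand, Mhrt (XLOC_009267, chr14:55587624-55593186) was the highest. Its model uc007txu.1 has 5 exons and 828 bases, the same length as the matching GENCODE transcript. It starts 2216 bases upstream of the UCSC start of Myh6, in the gap between the genes, and runs 3662 bases into Myh7. Mhrt had 4148 normalised read counts in 3RL, 5189 in 8R, 5697 in 7LR and 6122 in 12RL, with a mean of 5289 ± 851 (SD, n = 4). The order of the libraries was the same as for the merged locus. Its CV of 16.1% was above the 8.30% of the merged locus.

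Set against the merged locus in the same library, Mhrt stood at 0.0945% in 3RL, 0.107% in 8R, 0.110% in 7LR and 0.115% in 12RL, with a mean of 0.107% ± 0.00884 (SD, n = 4). The value in 3RL was the lowest. These libraries gave Mhrt between 3475 and 5003 reads, and in 3RL the 95% Poisson interval was 3360 to 3592 reads. Per kilobase of the longest UCSC model, Mhrt had 6388 ± 1028 normalised read counts (SD, n = 4), or 0.784% of the merged locus.

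Most of Mhrt lies under myosin exons. Of its 828 bases, 463 are inside exons of the merged locus on the other strand, and 365 (44.1%) are outside. The first exon, of 61 bases, lies wholly outside, while the next ones, of 81 and 148 bases, lie wholly inside. Across the whole table, 347 loci had every exon base inside exons of a locus on the other strand, and all 347 (100%) had 0 reads in all 4 libraries. Of 5841 loci with only some bases inside, 4.47% were at 0, and of 29111 loci with none inside, 24.4% were. If reads from shared bases went uncounted for Mhrt, its 365 outside bases would carry the whole value. That gives 14491 normalised read counts per kilobase, or 1.78% of the merged locus. The merged locus was kept at the full length of its longest UCSC model here, although its own shared bases would go uncounted too.

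The same bases bear on the myosin genes unequally. In the longest Myh7 model, 683 of 6054 bases (11.3%) lie under exons of an opposite-strand locus, against 146 of 6038 bases (2.42%) in the longest Myh6 model. Over all exons of the merged locus it is 11551 of 30794 bases (37.5%), much of it in the long first exon of the joined models. The strandedness of the libraries and the treatment of shared bases in counting are not stated in the labels. Reads of Mhrt and of Myh7 in shared bases therefore cannot be told apart. Apart from its first exon, the outside bases of Mhrt lie within Myh7 introns. There its reads cannot be told from reads of unspliced Myh7 RNA either.

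That long first exon is covered from the other side by XLOC_009268, at chr14:55609665-55625234. Its 2 models cover 10794 exon bases, of which 10664 lie inside exons of the merged locus and 130 outside. It had 122 normalised read counts in 3RL, 92.1 in 8R, 218 in 7LR and 251 in 12RL, from 81 reads in 8R to 191 reads in 7LR. Relative to the merged locus this was 0.00340% ± 0.00130 (SD, n = 4). Per kilobase of its longest model it had 15.9 normalised read counts, or 0.00195% of the merged locus. If only its 130 outside bases carried the value, as set out for Mhrt, it would have 1312 per kilobase, or 0.161% of the merged locus. All 130 bases lie within Myh7 introns, so reads there cannot be told from reads of unspliced Myh7 RNA. The libraries 12RL and 7LR were the higher ones, and 8R the lowest.

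The other overlapping loci were close to 0 or touched the interval only at its edge. XLOC_009265 (chr14:55571424-55601135) had 0 reads in every library. All its 183 exon bases lie inside exons of the merged locus, so it is one of the 347 such loci, all at 0, and its count says nothing of its level. XLOC_009266 (chr14:55575982-55604650) had 2 reads in 7LR, or 2.28 normalised read counts, and 0 in the other libraries, and only 4 of its bases lie outside those exons. Both are 2-exon assembled models that repeat the joining of the genes on the opposite strand. The exons of XLOC_009265, of 91 and 92 bases, lie within exon 24 of Myh6 and exon 26 of Myh7, across an implied intron of 29529 bases. Those of XLOC_009266, of 55 and 93 bases, lie at exon 18 of Myh6 and exon 20 of Myh7, across 28521 bases.

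XLOC_009264, the locus of Cmtm5, a gene of the chemokine-like factor family, runs towards the merged locus from the other side, at chr14:55555307-55558114. Its last exon overlaps the extended end of Myh6 by 97 bases, which the UCSC end of Myh6 does not reach. It had 46.6 normalised read counts in 3RL, 58.0 in 8R, 87.7 in 7LR and 61.5 in 12RL. These are 39 to 77 reads a library.

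The nearest loci without overlap were far lower than the merged one. On the plus strand beyond Myh7, Ngdn (XLOC_009269, 7646 bases away) had 2305 normalised read counts in 3RL, 2752 in 8R, 2087 in 7LR and 2042 in 12RL. Per kilobase of the longest UCSC model this was 0.250% of the merged locus. Efs (XLOC_009780, 13266 bases away) had a mean of 280.3 ± 63.4 (SD, n = 4), and Il25 (XLOC_009263), the gene of interleukin 25, had 7.96 ± 2.77. An unnamed single-exon locus 925 bases away, XLOC_010088, had 1.14 ± 1.61.

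The promoters of the 3 genes, as 250 bases before the start of the UCSC model, are printed because the models of the pair and of Mhrt start there. They are from RefSeq (GRCm38.p6), on the strand of each gene, 5′ to 3′, and capitals mark matches to TATANA, a form of the TATA box, and to CATTCC, the core of sites bound by TEAD factors, on either strand.
Myh6: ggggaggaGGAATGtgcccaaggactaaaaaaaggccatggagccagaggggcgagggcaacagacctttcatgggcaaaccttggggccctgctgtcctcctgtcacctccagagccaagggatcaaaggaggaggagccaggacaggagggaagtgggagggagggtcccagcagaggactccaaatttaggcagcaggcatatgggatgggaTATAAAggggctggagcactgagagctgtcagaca
Mhrt: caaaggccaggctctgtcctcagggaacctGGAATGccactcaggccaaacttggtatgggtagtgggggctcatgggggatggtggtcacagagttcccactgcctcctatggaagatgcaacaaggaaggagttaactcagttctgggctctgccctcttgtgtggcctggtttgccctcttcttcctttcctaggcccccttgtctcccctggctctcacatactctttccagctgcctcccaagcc
Myh7: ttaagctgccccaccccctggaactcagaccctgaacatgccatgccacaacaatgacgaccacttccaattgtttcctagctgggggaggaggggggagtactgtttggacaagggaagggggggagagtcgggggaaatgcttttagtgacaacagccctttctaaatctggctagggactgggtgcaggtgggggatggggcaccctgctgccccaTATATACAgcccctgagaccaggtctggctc
Myh6 had TATAAA at 35 to 30 bases before its start, and Myh7 had the overlapping TATATA and TATACA between 31 and 24 bases before its start. Mhrt had no match to TATANA in this window. GGAATG, the reverse complement of CATTCC, stood at 242 to 237 bases before the start of Myh6 and at 220 to 215 bases before that of Mhrt, and Myh7 had none. The E-box CANNTG was found in each: CATATG in Myh6, CAGCTG in Mhrt, and CAATTG and CAGGTG in Myh7. Of 32851 mouse promoters of the same length, 22.6% held TATANA, 12.6% held CATTCC and 66.2% held CANNTG on either strand. These matches describe the letters only.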

How the data were processed

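Poly(A)-selected RNA of 4 Sham hearts went into libraries read from both ends over 100 bases each, per the labels' protocols. The authors deposited 1 table of signal values, read counts per locus divided by a size factor per library, and exon positions of pooled transcript models. TopHat2 2.0.5, Cufflinks 2.0.2, HTSeq 0.5.4p2, DESeq and mm9 are named in the submitters' processing notes. For strandedness, counting mode and the libraries assembled, nothing is given in the sources used here. Column names match no label and were tied to the group only.

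In each column, 100% of values were whole multiples of 1 step within 0.001, so reads were recovered. Size factors were 0.838 (3RL), 0.878 (7LR), 0.880 (8R) and 0.634 (12RL), and totals in that order were 140554089, 142524825, 160670654 and 108345923 reads. Wilson and Poisson intervals at 95% cover counting error only, since reads carry no molecular identifiers.

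Named are the merged locus, loci overlapping it, the nearest loci without overlap, the 5 loci of 1000 or more mean counts with the smallest root mean square difference in log2(value + 1) deviations, and listed sarcomere and marker genes. One of the 5 is not reported here. The members and lists were chosen with earlier results of these data known. Symbols were to come from spans within 50 bases of a RefSeq table; of 8 symbols found by both rules, 3 fell on the same locus. They were taken instead from intron and inner exon lengths, a choice made after seeing the data, which matched 32573 of 38968 UCSC models of 3 or more exons (83.6%). Of 17281 loci with a symbol, 549 had more than 1. No coordinate was converted between builds. Neither the labels nor the files show a batch.

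Other scalings, lengths and filters, TMM (edgeR 4.0.16, R 4.3.3) and leaving out each library were tried. The steps were tested on simulated data and ran in Python 3.11.15, numpy 2.4.6, pandas 2.3.3, scipy 1.17.1, statsmodels 0.14.6 and Biopython 1.88.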

Additional observations from a re-analysis of the deposited data

Results flagged for a closer look

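At 3 loci, 1 library lay far from the other 3, by the ratio of its gap to the range of the values. Chance alone gives such a gap in about 5% of groups, and 31 loci were looked at. XLOC_009266, on the opposite strand of the merged locus, had a ratio of 1 by construction, since its reads came from 7LR only. The rate of 5% does not apply to it. Myl4 had a ratio of 0.961 and Myl7 one of 0.912, both because 12RL was high. The merged locus had a ratio of 0.506 and Mhrt one of 0.527, neither large enough to stand apart.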

How the results depend on the processing

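Of 48 alternatives run, 39 kept the value within the spread between replicates or, for counts and the CV, within 1.5 times. The share of reads of the merged locus was 4.17% without mitochondrial loci, and 2.79% to 2.99% when 1 library was left out. Its CV was 8.60% to 10.3% under other scalings and 4.57% to 10.03% when 1 library was left out. It ranked 1 without any 1 library, 9 per base of the longest spliced model, 9 per base of all exons and 4 per base of the longest UCSC model, which was chosen after seeing the data. Per base of all exons, the levels relative to the merged locus were 0.0437% for Cmtm5, 0.00229% for XLOC_009266, 3.97% for Mhrt and 0.00970% for XLOC_009268. Division by length made these moves by construction. When 1 library was left out, the levels not divided by length were 0.00114% to 0.00135% for Cmtm5, 0% to 1.47e-05% for XLOC_009266, 0.104% to 0.111% for Mhrt and 0.00296% to 0.00390% for XLOC_009268. The 5 loci of most similar pattern were kept, 5 of 5, at a minimum mean of 100, with a pseudocount of 10 and with equal table totals. No relative level exists for XLOC_009265, at 0 reads throughout. No paired analysis was possible because the 4 libraries form 1 group.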
